A study of Mus musculus with 10 samples.

Results

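Liver tumours of mice given Western diet and carbon tetrachloride (CCl4) were set against non-tumour liver of mice with the same exposure. The 4 libraries of this comparison, of 10 in the series, were chosen by their labels: 2 hepatocellular carcinomas (HCC), each from a single mouse after 24 weeks, and 2 pools of 4 livers each, after 12 and after 24 weeks. They are called tumour 1, tumour 2 and the exposed pools here. CCl4 is a hepatotoxin that Cyp2e1 activates, and every tumour and exposed pool had received it together with the diet. The other 6 libraries, also pools of 4 livers at 12 and 24 weeks, came from Western diet with oil (the vehicle), normal diet with CCl4 and normal diet with oil. They entered the fit as further pairs that inform the spread and are given for levels only. Strain, sex, age, CCl4 dose and hour of collection were not stated in the labels used here. Nor do the labels say whether the tumours came from different mice, or whether those mice also gave tissue to a pool. Of 24062 genes in the table, 12648 had a value of at least 1 in 2 or more libraries and were tested.

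The adult liver lobule is zoned. Hepatocytes around the central vein receive Wnt signals and carry Glul, Cyp2e1 and most drug-metabolising cytochromes P450, and those around the portal vein carry gluconeogenesis and the urea cycle. Hepatocellular carcinomas commonly lose parts of this programme and can re-express fetal liver genes such as Afp, H19 and Gpc3. NRF2 is a transcription factor that is freed from its inhibitor Keap1 under oxidative stress. It drives glutathione synthesis, glutathione transferases and NADPH-producing enzymes, and it is often active in liver tumours.

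Values are normalised read counts per gene. They are given with tumour 1 before tumour 2, and with the 12-week before the 24-week pool. Differences are on the log2(value + 1) scale, tumours minus exposed pools, with the standard error (SE) of the fit. They are adjusted to 24 weeks by the mean change from 12 to 24 weeks over the 4 pairs of pools, so they can differ from a plain difference of the values printed. All libraries held between 23206229 and 30137802 reads, and 1 read is worth 0.0391 and 0.0388 in the tumours, against 0.0384 and 0.0287 in the exposed pools. The tissue label was checked against markers. The summed level of 7 hepatocyte markers was 81445 and 242000 in the tumours, against 104050 and 69067 in the exposed pools, so hepatocyte messages dominated both tumours. Albumin alone took 7.29% and 17.7% of reads in the tumours, against 8.58% and 6.47% in the exposed pools. Of 6 HCC markers, Golm1, Ly6d and Spink3 lay above both exposed pools in both tumours, whereas Afp and Gpc3 did so in tumour 2 alone and H19 in tumour 1 alone. The tumours differed from each other more than any pair of pools did. Their median absolute difference over tested genes was 0.42 on the log2 scale, against 0.20 for the exposed pools. It was 0.14 to 0.19 for the other pairs. A difference over 2-fold was seen for 1816 genes (14.4%) between the tumours, and for 434 genes (3.43%) between the exposed pools.

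With both tumours as a group against the exposed pools, limma called 123 genes at an adjusted p under 0.05, 0.972% of those tested. Of these, 59 were higher (0.466%) and 64 lower (0.506%), and 118 had changed at least 2-fold. In all 123, both tumours lay beyond both exposed pools, which held without a test for 2604 genes above (20.6%) and 2554 below (20.2%). The count moved with every library left out. With 1 of the exposed pools or 1 of the Western diet and oil pools left out, limma called 0 genes. Between 1221 and 1585 genes then had an unadjusted p under 0.05, and edgeR and DESeq2 were not run without a library. It called 1 gene without either pool of normal diet with oil, and 8 and 7 without the 12-week and 24-week pool of normal diet with CCl4. Without tumour 1 it called 2394 genes and without tumour 2 it called 2259. On reads recovered from the values, edgeR called 85 genes, 81 of them among the 123, and DESeq2 called 745, with all 123 among them.

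Each tumour was also given its own mean, so that genes moved in both could be kept apart from genes moved in 1. A lone tumour from 1 mouse is then assumed to vary like the pools of 4 mice, and these p-values may be too small. Against the exposed pools, 2261 genes (17.9%) were called in tumour 1, 1175 higher (9.29%) and 1086 lower (8.59%). In tumour 2 the number was 2393 (18.9%), 1103 higher (8.72%) and 1290 lower (10.2%). Both tumours shared 608 genes of the same sign (4.81%), 281 higher (2.22%) and 327 lower (2.59%). These 2 comparisons share the exposed pools, so the overlap is a description and has no test. Another 175 genes (1.38%) were called in both with opposite signs, 102 of them higher in tumour 1 and 73 higher in tumour 2. The tumours differed from each other in 3072 genes (24.3%), 1521 higher in tumour 1 (12.0%) and 1551 lower (12.3%). A gene was placed with tumour 1 alone where it was called there and not in tumour 2, the tumours themselves differed in the same direction, and the other tumour had moved less than 2-fold or the opposite way. By that rule 925 genes (7.31%) belonged to tumour 1 alone, 500 higher (3.95%) and 425 lower (3.36%). Tumour 2 alone had 988 (7.81%), 508 higher (4.02%) and 480 lower (3.80%). Without the 12-week or the 24-week pool of Western diet with oil, the calls in tumour 1 came to 1145 and 1141, the shared genes to 338 and 335, and those of tumour 1 alone to 453 in both cases.

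**Figure D1:**
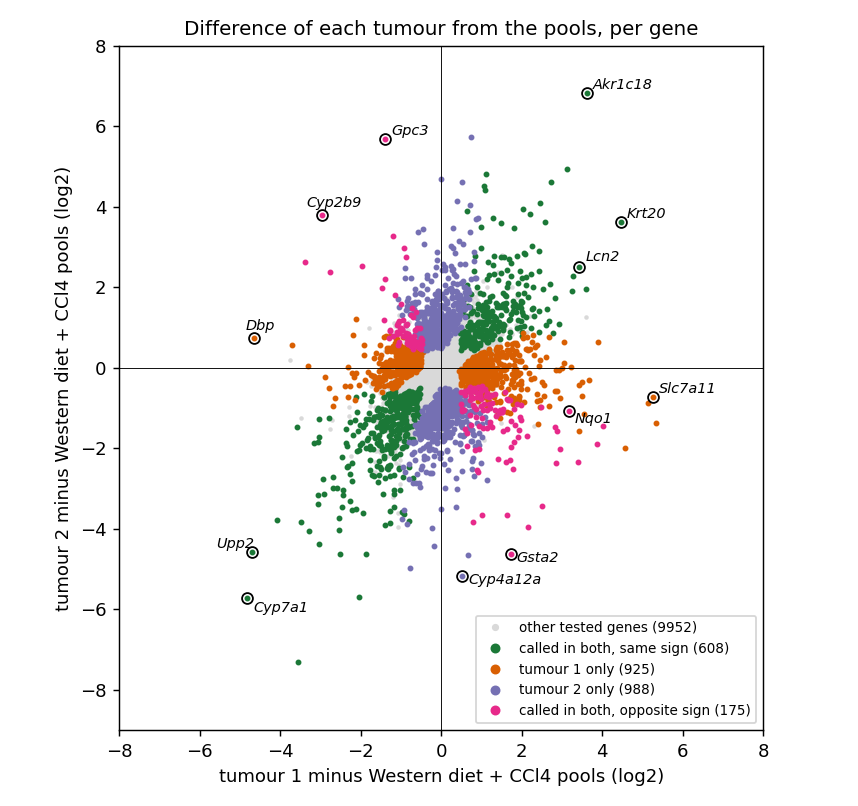
Difference of tumour 1 (x axis) and tumour 2 (y axis) from the exposed pools for each of 12648 genes, in log2 units, with the class of each gene in colour. The 608 shared genes lie in the upper right and lower left, and Gpc3, Cyp2b9, Nqo1 and Gsta2 are among the 175 genes of opposite sign.

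Genes that rose in both tumours included secreted and epithelial products. Lcn2, which encodes the iron-siderophore binding protein lipocalin 2 (chr2:32384633-32388252, minus strand, GRCm38), stood at 1429 and 757 in the tumours, against 35.6 and 168 in the exposed pools. It rose by 2.97 ± 0.39 (adjusted p = 0.0209), and both tumours lay above all 8 pools. Neutrophils also carry Lcn2: the summed level of 4 neutrophil markers was 9.74 and 10.1 in the tumours, against 7.37 and 9.91 in the exposed pools. S100a8 and S100a9 were above both pools in both tumours, S100a9 narrowly, at 2.58 in tumour 1 against 2.56 in the 24-week pool. Csf3r had 4.46 and 2.87 in the tumours, against 3.76 and 5.77 in the exposed pools. Retnlg had 0.469 and 0.466 in the tumours, against 0.538 and 0.172 in the exposed pools. The part of neutrophils in the rise of Lcn2 was not tested. Krt20, a keratin of intestinal and urothelial epithelium (chr11:99428403-99438150, minus strand), stood at 34.4 and 18.9 in the tumours and at 0.307 and 0.804 in the exposed pools, where it was close to undetected (4.04 ± 0.34, adjusted p = 0.016). Both tumours lay clear of all 8 pools for it. Scd2, a stearoyl-CoA desaturase that is normally low in adult liver, had 722 and 361 in the tumours, against 47.9 and 88.8 in the exposed pools (2.78 ± 0.36, adjusted p = 0.0209). Its relative Scd1, the main hepatic desaturase, had 27243 and 18017 in the tumours and 21091 and 31163 in the exposed pools and did not pass (adjusted p = 0.902). Golm1, a Golgi membrane protein used as a serum marker of human HCC, rose by 1.69 ± 0.24 (adjusted p = 0.0245). Ly6d and the trefoil peptide Tff3 also rose, by 1.66 ± 0.23 and 3.02 ± 0.51. Tff3 had 12.7 and 40.8 in the tumours, against 1.54 and 1.98 in the exposed pools and 22.3 and 36.3 in the pools of normal diet with oil, so the tumours overlapped normal diet with oil.

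Further shared rises are given gene by gene. Chka, choline kinase alpha, had 148 and 126 in the tumours, against 37.8 and 44.8 in the exposed pools (1.71 ± 0.19, adjusted p = 0.0183). Enpp2, the secreted lysophospholipase D autotaxin, rose by 1.69 ± 0.20, the phosphatidylserine lipase Pla1a by 1.69 ± 0.28 and the neutral sphingomyelinase Smpd3 by 1.81 ± 0.28. Psat1, which makes phosphoserine on the way to serine, had 14.4 and 25.6 in the tumours and 1.77 and 3.22 in the exposed pools (2.45 ± 0.32, adjusted p = 0.0209). Psph, a later enzyme of that pathway, had 16.9 and 14.4 in the tumours and 7.34 and 5.52 in the exposed pools and missed the threshold as a group (adjusted p = 0.0551). Apcs, serum amyloid P, had 189.9 and 281 in the tumours, against 51.2 and 54.1 in the exposed pools (2.02 ± 0.25). The interleukin-1 receptor antagonist Il1rn rose by 1.97 ± 0.25 and the chemokine Ccl9 by 1.45 ± 0.18. Of 21 tested chemokines and cytokines, 1 rose for the group and 0 fell (median -0.082). Of 25 tested acute phase genes, 3 rose for the group and 0 fell, with a median difference of 0.40. Over all tested genes the median was -0.0027 and 0.466% rose. Saa1, a classical acute phase reactant, had 84.6 and 27.4 in the tumours and 43.3 and 179 in the exposed pools, and the groups overlapped.

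**Figure D2:**
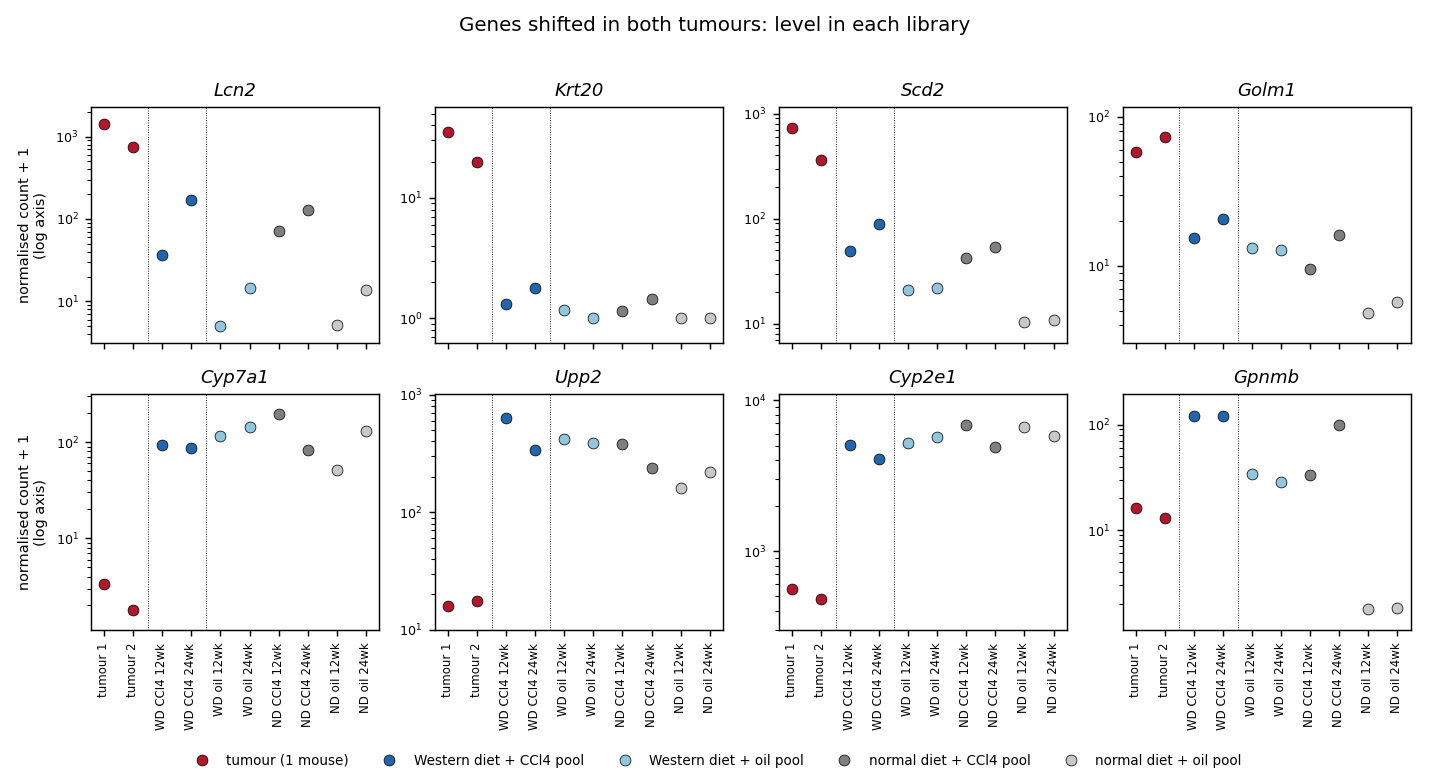
Normalised read count plus 1 (log axis) of 8 genes called in both tumours as a group, in each of the 10 libraries, with tumours in red and exposed pools in dark blue. Lcn2, Krt20, Scd2 and Golm1 are higher in both tumours than in every pool, and Cyp7a1, Upp2 and Cyp2e1 are lower in both than in every pool, while Gpnmb in tumours lies below the exposed pools and above normal diet with oil.

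Many of the shared falls were enzymes and carriers of hepatocytes. Cyp7a1, the rate-limiting enzyme of bile acid synthesis (chr4:6265612-6275633, minus strand, GRCm38), stood at 2.31 and 0.776 in the tumours, against 93.1 and 86.6 in the exposed pools, and fell by 5.27 ± 0.59 on the log2 scale (adjusted p = 0.0184). Upp2, a liver uridine phosphorylase, stood at 14.9 and 16.5 in the tumours and at 633 and 334 in the exposed pools, and fell by 4.63 ± 0.33 (adjusted p = 0.0131). Both were lower in each tumour than in any of the 8 pools. Cyp2e1, the enzyme that activates CCl4, stood at 556 and 478 in the tumours, against 5042 and 4068 in the exposed pools (fell by 3.02 ± 0.35, adjusted p = 0.0187). Rgn, regucalcin, fell by 2.85 ± 0.26 and the paraoxonase Pon1 fell by 2.83 ± 0.27. Nnmt, which methylates nicotinamide, fell by 3.67 ± 0.36, the carboxylesterase Ces1b fell by 3.28 ± 0.47 and the bile salt and drug uptake carrier Slco1a4 fell by 2.05 ± 0.19. Of 24 tested genes of bile acid synthesis and transport, 2 fell for the group and 0 rose (median -0.78), and 15 lay below both exposed pools in both tumours. Among all tested genes, 0.506% fell for the group, and 20.2% lay below both exposed pools in both tumours. Cyp8b1, the sterol 12-alpha hydroxylase, had 13.1 and 2.25 in the tumours, against 114 and 76.5 in the exposed pools (adjusted p = 0.0538). Got1, an aspartate aminotransferase, fell by 2.12 ± 0.24, and Ahcy, which hydrolyses adenosylhomocysteine, fell by 1.68 ± 0.28. Cyp2c50 and Ces1b belong to clusters of near-identical genes whose reads may be split differently by another counter.

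Of 24 tested members of the pericentral list, 6 fell as a group and 0 rose, and 15 were lower in both tumours than in both exposed pools, with a median difference of -1.49. Taken alone, tumour 1 had 3 members higher than the exposed pools. Over all tested genes 0.506% fell for the group and 20.2% lay below both exposed pools in both tumours. The 6 were Cyp7a1, Cyp2c50, Slc1a2, Cyp2e1, Rgn and Ahr, the aryl hydrocarbon receptor, which fell by 1.53 ± 0.21. Slc1a2, a glutamate transporter of the innermost pericentral hepatocytes, had 2.46 and 0.505 in the tumours, against 14.9 and 22.5 in the exposed pools and 139.6 and 137 in the pools of normal diet with oil. The exposed pools were below normal diet with oil, and the tumours below the exposed pools (fell by 3.14 ± 0.44, adjusted p = 0.0241). Glul, glutamine synthetase, separated the tumours: it had 529.9 and 62.7 in the tumours and 238 and 369 in the exposed pools, and differed between tumour 1 and tumour 2 by 3.06 ± 0.28 (adjusted p = 0.000228). Axin2 and Lgr5, feedback targets of Wnt signalling, were low throughout. Axin2 had 3.83 and 1.44 in the tumours, against 7.18 and 8.53 in the exposed pools (adjusted p = 0.168), and Lgr5 had 0.782 and 1.36 in the tumours, against 2.50 and 3.76 in the exposed pools (adjusted p = 0.203). Of 19 tested beta-catenin targets, 0 rose and 2 fell as a group (Slc1a2 and Cyp2e1), with a median of -0.57. Of 23 periportal genes, 0 rose and 0 fell in limma (10 at an unadjusted p under 0.05, 0 called by edgeR, and 1 higher and 7 lower in DESeq2), with a median of -0.55, though 10 lay below both exposed pools in both tumours. Pck1, the gluconeogenic carboxykinase, had 389.5 and 908 in the tumours and 3798 and 2916 in the exposed pools (adjusted p = 0.0562), and the urea cycle enzyme Cps1 had 1202 and 1864 in the tumours and 4596 and 2846 in the exposed pools (adjusted p = 0.208).

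A few genes of macrophages and fibroblasts were also among the shared falls. For the group, 1 of 22 tested recruited macrophage genes fell, as did 2 of 38 matrix genes and 1 of 21 stellate cell genes. In each list 0 rose, and 0.506% of all tested genes fell. Of the 22 macrophage genes, 11 lay below both exposed pools in both tumours and 4 above both. Gpnmb, a glycoprotein of lipid-laden macrophages, had 15.3 and 12.0 in the tumours, against 121 and 120.3 in the exposed pools, and fell by 3.23 ± 0.43 (adjusted p = 0.0228). It stayed above its level in the pools of normal diet with oil, 0.799 and 0.823. Of the matrix proteins of fibroblasts, Lum fell by 2.19 ± 0.35, Dpt fell by 2.38 ± 0.32 and Efemp1 fell by 1.65 ± 0.21. In bulk tissue, fewer cells of a type and less RNA per cell cannot be told apart. The summed level of 5 recruited macrophage markers was 209.8 and 142 in the tumours, against 409 and 417 in the exposed pools, and 3 of the 5 were below both pools in both tumours. For 5 Kupffer cell markers it was 224 and 247 in the tumours, against 633 and 333 in the exposed pools, with 3 of 5 below. For 6 stellate cell markers it was 528 and 231 in the tumours, against 392 and 668 in the exposed pools, with 1 of 6 below and 1 above. For 6 cholangiocyte markers the sums overlapped, at 55.7 and 55.7 in the tumours and 30.5 and 78.6 in the exposed pools, while Krt7, Krt19, Epcam and Cftr were below both pools in both tumours and Sox9 above both. Beside these marker counts, 20.2% of all tested genes lay below both exposed pools in both tumours, and 20.6% above both. T cell markers were near 0 everywhere, with sums of 3.44 and 1.44 in the tumours, against 4.61 and 5.46 in the exposed pools. The part of these markers in the results was not tested.

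Of 41 tested cell cycle genes, limma called none for the group, at a median of 0.87, and 29 were above both exposed pools in both tumours, against 20.6% of all tested genes. At an unadjusted p under 0.05 there were 20, edgeR called 0 and DESeq2 called 7, all higher. In the single fits 23 rose in tumour 1 and 0 fell, and 11 rose in tumour 2 and 1 fell, beside 9.29% rising in tumour 1 and 8.72% in tumour 2 over all tested genes. Mki67, which marks cycling cells, had 22.2 and 21.7 in the tumours, against 5.38 and 9.91 in the exposed pools (1.24 ± 0.35, adjusted p = 0.144). Plk1, a mitotic kinase, had 9.70 and 5.94 in the tumours and 0.768 and 2.21 in the exposed pools, and Hmmr, a spindle protein, had 14.8 and 6.75 in the tumours and 1.31 and 2.27 in the exposed pools. Both lay above both exposed pools in both tumours. Pcna, the polymerase clamp, had 27.3 and 18.9 in the tumours and 24.5 and 26.5 in the exposed pools, where the groups overlapped. The cyclin Ccne1 was high in tumour 2 alone, at 2.93 and 12.8 in the tumours, against 2.65 and 2.30 in the exposed pools. The kinase inhibitor Cdkn2b stood at 1.99 and 20.1 in the tumours, against 0.307 and 0.804 in the exposed pools.

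The tumours parted over NRF2 targets and glutathione transferases. Of 29 tested members of that list, 21 rose in tumour 1 and 0 fell, with a median of 1.21. In tumour 2, 2 rose and 17 fell, with a median of -0.61. The medians over all tested genes were -0.035 in tumour 1 and 0.018 in tumour 2, where 9.29% and 8.72% rose and 8.59% and 10.2% fell. Between the tumours themselves, 23 members were higher in tumour 1 and 1 was lower. Slc7a11, the cystine carrier that feeds glutathione synthesis (chr3:49892526-50443614, minus strand, GRCm38), had 91.8 and 0.466 in the tumours, against 0.461 and 2.30 in the exposed pools. The difference between tumour 1 and the pools was 5.25 ± 0.41 (adjusted p = 0.000391), and between tumour 1 and tumour 2 it was 5.99 ± 0.46 (adjusted p = 0.000121). Nqo1, a quinone reductase and standard NRF2 reporter (chr8:107388225-107403206, minus strand), had 148 and 6.87 in the tumours and 12.1 and 16.7 in the exposed pools. It rose by 3.16 ± 0.20 in tumour 1 and fell by 1.08 ± 0.20 in tumour 2 (adjusted p = 0.000231 and 0.00696). The carbonyl reductase Cbr3 had 189.9 and 3.34 in the tumours, against 9.26 and 11.7 in the exposed pools, and the efflux pump Abcc4 had 87.8 and 3.49 in the tumours, against 6.61 and 13.4 in the exposed pools. For all 4 genes tumour 1 stood far above every other library, and tumour 2 was within or below the range of the exposed pools.

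Several glutathione transferases were high in tumour 1 and low in tumour 2. Gstm1 had 9298 and 837 in the tumours, against 2722 and 2276 in the exposed pools, and Gstm3 had 1167 and 28.8 in the tumours, against 289.5 and 407 in the exposed pools. Gsta2 was at 125 and 0.543 in the tumours and 35.2 and 33.2 in the exposed pools, and was close to undetected in tumour 2 (fell by 4.63 ± 0.22, adjusted p = 2.00e-05). Members of the Gsta and Gstm families are close copies of each other, and how the reads were divided among them is uncertain. Gclc, the catalytic subunit that limits glutathione synthesis, rose by 1.67 ± 0.20 in tumour 1 (adjusted p = 0.00186) and had 997 and 218 in the tumours, against 323 and 323 in the exposed pools. Its regulatory subunit Gclm had 172 and 99.1 in the tumours and 175 and 148 in the exposed pools and did not pass in tumour 1 (adjusted p = 0.434). Srxn1 and Txnrd1, which reduce oxidised peroxiredoxins and thioredoxin, rose by 2.09 ± 0.25 and 1.29 ± 0.16 in tumour 1. The pentose phosphate enzymes Pgd and Tkt rose by 1.41 ± 0.17 and 1.14 ± 0.16 there, while G6pdx, the first enzyme of that pathway, passed in neither tumour (adjusted p = 0.784 and 0.186). Hmox1, heme oxygenase, had 30.7 and 25.4 in the tumours, against 37.9 and 36.5 in the exposed pools, and fell in tumour 2 (adjusted p = 0.0375). Osgin1, a stress-induced growth inhibitor, and Ces2g, a carboxylesterase, were the 2 members that rose in both. Osgin1 had 376 and 516 in the tumours, against 87.5 and 81.4 in the exposed pools (2.67 ± 0.32 for the group, adjusted p = 0.0209).

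**Figure D3:**
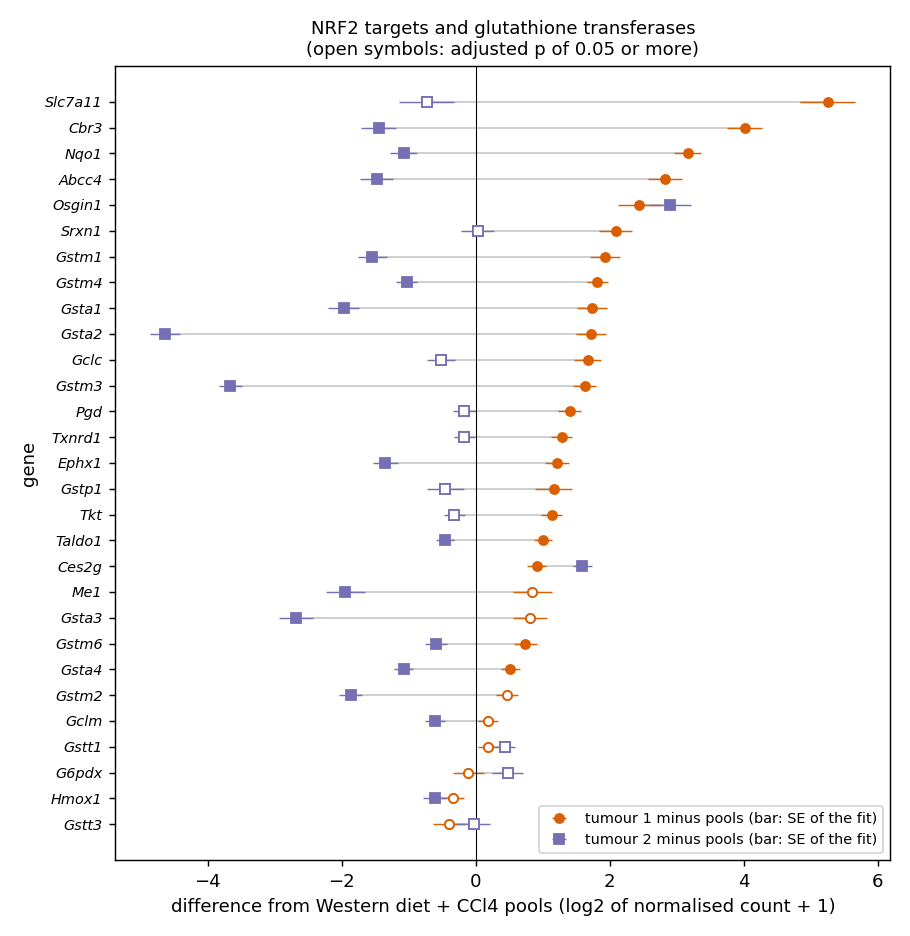
Difference from the exposed pools (log2 units, bars are SE of the fit) of the 29 tested NRF2 targets and glutathione transferases in tumour 1 (circles) and tumour 2 (squares), with open symbols where the adjusted p is 0.05 or more. Circles lie to the right of squares for most genes, and Osgin1 and Ces2g are positive in both tumours.

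NRF2 binds the antioxidant response element, whose core letters TGACNNNGC were searched on both strands in the 250 bases before each start site (RefSeq, GRCm38.p6). They were found before 10.2% of 32851 start sites and for 14.2% of 9574 tested genes with such a window. Of 26 list members with a window, 5 held the core (Gclm, Txnrd1, G6pdx, Gsta3 and Abcc4), and of 19 that rose in tumour 1, 2 did. The windows of those 2, Txnrd1 (second start site, chr10:82858956-82859205, plus strand) and Abcc4 (first start site, chr14:118706220-118706469, minus strand), are shown with the core in capitals. In both it lies on the opposite strand, so that the capitals show its reverse complement.

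Txnrd1: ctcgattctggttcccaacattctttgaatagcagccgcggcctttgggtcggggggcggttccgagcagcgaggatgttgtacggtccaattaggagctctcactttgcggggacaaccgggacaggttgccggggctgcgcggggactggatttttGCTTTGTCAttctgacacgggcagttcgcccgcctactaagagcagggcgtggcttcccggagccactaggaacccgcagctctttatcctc
Abcc4: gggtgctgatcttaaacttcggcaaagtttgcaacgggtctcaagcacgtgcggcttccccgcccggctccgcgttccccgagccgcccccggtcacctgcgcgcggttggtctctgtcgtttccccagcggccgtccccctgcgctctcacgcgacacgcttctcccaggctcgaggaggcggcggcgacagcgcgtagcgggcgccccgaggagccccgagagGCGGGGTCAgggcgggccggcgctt

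The core began 92 bases before the start of Txnrd1 and 25 before that of Abcc4. Nqo1, Slc7a11 and Cbr3, which rose most among the 29 members in tumour 1, had no match in this window.

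Clock genes also differed in tumour 1. The circadian clock is a loop in which Arntl and Clock or Npas2 activate Per, Cry, Nr1d and Dbp genes, whose products feed back on it. Of 21 tested clock genes, 12 fell in tumour 1 and 2 rose, with a median of -1.19, and in tumour 2, 5 fell and 2 rose, with a median of -0.24. The shares of all tested genes were 8.59% falling and 9.29% rising in tumour 1, and 10.2% falling and 8.72% rising in tumour 2. Dbp, an output factor (chr7:45705088-45710203, plus strand, GRCm38), had 1.06 and 85.3 in the tumours, against 62.4 and 50.1 in the exposed pools, and fell by 4.66 ± 0.27 in tumour 1 (adjusted p = 0.000231). Tef fell by 2.88 ± 0.16 and Nr1d2 fell by 2.32 ± 0.17 in tumour 1, and Per3 had 0.743 and 33.0 in the tumours, against 28.7 and 18.2 in the exposed pools. The activators went the other way in tumour 1: Npas2 had 20.3 and 1.86 in the tumours and 1.34 and 2.53 in the exposed pools, and Arntl had 25.4 and 3.65 in the tumours and 8.87 and 7.93 in the exposed pools. The pools were not uniform for these genes. Dbp stood at 1.46 and 2.10 and Per3 at 0.532 and 2.01 in the pools of normal diet with oil, close to tumour 1, whereas Arntl stood at 33.5 and 30.4 there. Since the hour of collection is not given, tumour state and hour cannot be told apart for these genes. Usp2, a deubiquitinase with a strong daily rhythm, was the 1 clock gene called for the group, at 2.62 and 3.45 in the tumours, against 68.5 and 44.7 in the exposed pools and 3.19 and 8.55 in normal diet with oil.

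Arntl and Clock bind the E-box CACGTG, which was searched in the same windows, where it reads alike on both strands. It was found before 6.02% of start sites and for 9.92% of tested genes with a window. Of 17 clock genes with a window, 5 held it (Per1, Cry1, Tef, Ciart and Bhlhe41), and of the 11 with a window that fell in tumour 1, 4 did. Windows of 3 of these 4 are shown with the E-box in capitals: Ciart (chr3:95882229-95882478, minus strand), which held 3, Tef (first start site, chr15:81802423-81802672, plus strand) and Per1 (first start site, chr11:69098699-69098948, plus strand).

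Ciart: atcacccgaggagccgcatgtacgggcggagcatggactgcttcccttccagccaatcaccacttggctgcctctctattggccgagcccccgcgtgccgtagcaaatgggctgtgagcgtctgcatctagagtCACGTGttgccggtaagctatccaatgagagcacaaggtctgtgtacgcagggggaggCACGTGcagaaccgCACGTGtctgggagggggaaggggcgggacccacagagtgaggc
Tef: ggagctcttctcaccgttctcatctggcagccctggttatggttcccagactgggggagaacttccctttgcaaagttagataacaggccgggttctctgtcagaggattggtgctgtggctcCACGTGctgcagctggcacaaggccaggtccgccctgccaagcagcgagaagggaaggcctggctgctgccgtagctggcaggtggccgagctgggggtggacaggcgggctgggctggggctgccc
Per1: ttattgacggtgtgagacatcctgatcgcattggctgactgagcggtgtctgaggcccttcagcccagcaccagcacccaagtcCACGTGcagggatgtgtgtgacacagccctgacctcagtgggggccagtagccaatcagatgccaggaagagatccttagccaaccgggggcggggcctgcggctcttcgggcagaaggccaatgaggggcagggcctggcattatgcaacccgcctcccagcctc

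Ciart, a repressor in the loop, had 0.195 and 1.90 in the tumours, against 10.5 and 7.15 in the exposed pools. It fell by 3.15 ± 0.48 in tumour 1 and fell by 1.87 ± 0.48 in tumour 2 (adjusted p = 0.00406 and 0.0266). Per1 had 14.4 and 33.2 in the tumours and 44.1 and 42.3 in the exposed pools. Dbp, Per3, Nr1d2 and Usp2 had no E-box in the windows searched.

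Of 23 tested genes of endoplasmic reticulum and integrated stress, 13 rose in tumour 1 and 0 fell (median 0.96), and 6 rose and 1 fell in tumour 2 (median 0.52), against 9.29% of all tested genes rising in tumour 1 and 8.72% in tumour 2. Ddit3, which encodes the stress factor CHOP, had 53.9 and 13.5 in the tumours, against 7.26 and 8.16 in the exposed pools. Fgf21, a stress-induced liver hormone, had 72.0 and 13.6 in the tumours and 2.65 and 10.7 in the exposed pools, and rose by 3.60 ± 0.70 in tumour 1 (adjusted p = 0.0111). Its difference between the tumours did not pass (adjusted p = 0.0602). Hspa1b, a heat shock protein, and Creld2, a secreted stress protein, rose by 3.43 ± 0.74 and 2.12 ± 0.55 in tumour 1. Flt4, the receptor of lymphatic growth factors, had 233 and 45.1 in the tumours, against 30.9 and 41.1 in the exposed pools (2.61 ± 0.24 in tumour 1, adjusted p = 0.000672). Of 21 tested genes of stellate cells and myofibroblasts, 4 rose and 6 fell in tumour 1 (median -0.41), and 0 rose and 13 fell in tumour 2 (median -1.21). The shares of all tested genes that fell were 8.59% in tumour 1 and 10.2% in tumour 2. Acta2 and Tagln, contractile genes of myofibroblasts and smooth muscle picked after their values were seen, were high in tumour 1. Acta2 had 44.9 and 7.65 in the tumours and 3.34 and 5.89 in the exposed pools, and Tagln had 41.2 and 10.6 in the tumours and 10.8 and 14.6 in the exposed pools. The collagen Col1a1 had 122 and 57.8 in the tumours and 86.0 and 196 in the exposed pools, where tumour 1 lay between the pools. Lrat, which stores retinol in quiescent stellate cells, had 18.6 and 6.02 in the tumours, against 39.5 and 44.0 in the exposed pools. Igf2bp3, a fetal RNA-binding protein, had 19.7 and 0.427 in the tumours, against 0.538 and 1.01 in the exposed pools (3.50 ± 0.29 in tumour 1, adjusted p = 0.000467). The imprinted fetal RNA H19 had 216 and 15.1 in the tumours, against 139 and 18.0 in the exposed pools, and passed in neither tumour (adjusted p = 0.199 and 0.421). Igf2, its neighbour, was low in both groups, at 1.09 and 0.699 in the tumours and 6.14 and 1.92 in the exposed pools.

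Hamp, which encodes the iron hormone hepcidin, had 19.6 and 207 in the tumours, against 254 and 169 in the exposed pools. It fell by 3.30 ± 0.26 in tumour 1, while tumour 2 lay between the exposed pools. Slc10a1, the sodium-dependent bile salt carrier, fell by 2.31 ± 0.33 in tumour 1, at 57.0 and 173 in the tumours, against 490.1 and 247 in the exposed pools. Of 32 tested genes of hepatocyte identity, 0 rose and 8 fell in tumour 1 (median -0.35), while 8 rose and 3 fell in tumour 2 (median 0.32). Among all tested genes, 9.29% rose and 8.59% fell in tumour 1, and 8.72% rose and 10.2% fell in tumour 2. Hnf4a, the master regulator of hepatocytes, had 443 and 764 in the tumours and 733 and 515 in the exposed pools and passed in neither.

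**Figure D4:**
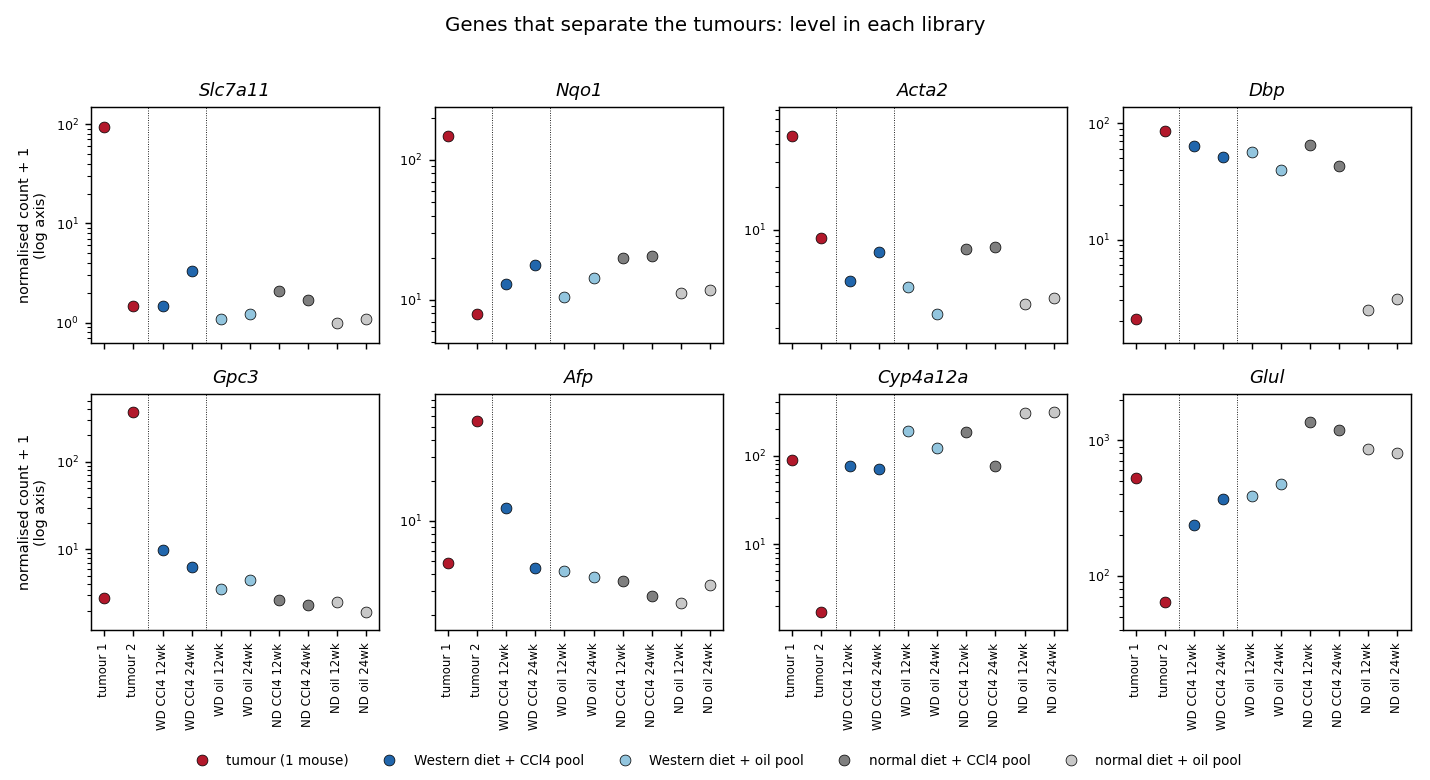
Normalised read count plus 1 (log axis) of 8 genes in each of the 10 libraries, with tumours in red and exposed pools in dark blue. Slc7a11, Nqo1 and Acta2 are highest in tumour 1 and Gpc3 and Afp highest in tumour 2, Dbp is low in tumour 1 and in normal diet with oil, and Cyp4a12a and Glul are lowest in tumour 2.

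The oncofetal markers Gpc3 and Afp were high in tumour 2. Gpc3, a heparan sulphate proteoglycan of fetal liver and HCC (chrX:52272426-52613950, minus strand, GRCm38), had 1.76 and 371 in the tumours, against 8.76 and 5.23 in the exposed pools. It rose by 5.68 ± 0.31 in tumour 2 and fell by 1.39 ± 0.31 in tumour 1 (adjusted p = 2.63e-05 and 0.0197). Afp, alpha-fetoprotein, had 3.83 and 54.1 in the tumours and 11.4 and 3.48 in the exposed pools (3.08 ± 0.47 in tumour 2, adjusted p = 0.00285). Spink3, the mouse relative of human SPINK1, rose in both tumours, by 2.02 ± 0.28 in tumour 1 and 3.95 ± 0.28 in tumour 2, and Akr1c18, a steroid reductase, by 3.63 ± 0.62 in tumour 1 and 6.84 ± 0.62 in tumour 2. Akr1c18 had 29.4 and 281 in the tumours, against 5.45 and 0.402 in the exposed pools. The keratin Krt23 had 2.70 and 54.3 in the tumours, against 5.18 and 4.71 in the exposed pools. Prom1, a progenitor marker, had 3.44 and 38.2 in the tumours, against 2.53 and 12.7 in the exposed pools. Further rises of tumour 2 alone were the growth factor receptor Fgfr2 (2.88 ± 0.29), the basement membrane gene Nid1 (3.02 ± 0.31), the cell adhesion gene Cdh1 (2.52 ± 0.37) and the peroxisomal transporter Abcd2 (3.15 ± 0.20). Of 25 tested oncofetal and HCC markers, 11 rose and 3 fell in tumour 1, and 9 rose and 1 fell in tumour 2, where the shares of all tested genes that rose were 9.29% and 8.72%.

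Of 26 tested cholesterol synthesis genes, 3 rose and 2 fell in tumour 1 (median -0.039), 15 rose and 0 fell in tumour 2 (median 0.71), and 17 were lower in tumour 1 than in tumour 2. Tumour 1's counts are close to the 9.29% that rose and 8.59% that fell there over all tested genes, while 8.72% rose and 10.2% fell in tumour 2. Sqle, squalene epoxidase, had 39.9 and 157 in the tumours, against 21.4 and 21.3 in the exposed pools (2.78 ± 0.19 in tumour 2, adjusted p = 6.02e-05). The apolipoproteins Apoa1, Apoa4, Apoc2 and Apom rose by 2.24 ± 0.28, 2.27 ± 0.29, 2.44 ± 0.17 and 2.58 ± 0.30 in tumour 2. Apoa1 had 3789 and 22796 in the tumours, against 5462 and 4781 in the exposed pools. Alb, albumin, had 66122 and 203790.0 in the tumours and 84121 and 54802 in the exposed pools and did not pass in tumour 2 (adjusted p = 0.127). Of 19 tested genes of MAP kinase feedback and immediate early response, 10 rose and 0 fell in tumour 2, and 3 rose and 0 fell in tumour 1. Egr1, an immediate early factor, had 82.4 and 259.6 in the tumours, against 7.87 and 22.6 in the exposed pools, and the ERK phosphatase Dusp6 had 105 and 144 in the tumours and 44.4 and 57.6 in the exposed pools. Both tumours lay above both exposed pools for these 2 genes, and neither passed for the group (adjusted p = 0.0661 and 0.0672).

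Of the 24 pericentral genes, 11 fell and 3 rose in tumour 1 (median -1.07), and 20 fell and 0 rose in tumour 2 (median -2.42). Of 30 tested PPAR-alpha targets and fatty acid oxidation genes, 7 fell and 4 rose in tumour 1, and 19 fell and 1 rose in tumour 2. Of all genes tested, 8.59% fell and 9.29% rose in tumour 1, and 10.2% fell and 8.72% rose in tumour 2. Cyp4a14, a fatty acid omega-hydroxylase, had 24.5 and 0.893 in the tumours, against 240.1 and 370.3 in the exposed pools (adjusted p = 0.00238 in tumour 1 and 5.24e-05 in tumour 2). Cyp4a12a, a male-biased relative, had 88.5 and 0.737 in the tumours and 76.1 and 70.2 in the exposed pools (fell by 5.17 ± 0.34 in tumour 2, adjusted p = 5.83e-05). Its near copy Cyp4a12b moved with it, and reads of these 2 may be exchanged. Of 13 tested female-biased genes, 2 rose and 7 fell in tumour 1 (median -1.42), and 5 rose and 5 fell in tumour 2 (median -0.88). Cyp2b9 and Cyp17a1, cytochromes P450 on that list, were picked after their values were seen. Cyp2b9 had 0.469 and 158 in the tumours, against 12.3 and 8.30 in the exposed pools, and Cyp17a1 had 8.76 and 220.0 in the tumours, against 14.2 and 44.6 in the exposed pools. Of 25 tested male-biased genes, 7 fell and 1 rose in tumour 1, and 5 fell and 2 rose in tumour 2. The background for both lists was 9.29% rising and 8.59% falling in tumour 1, and 8.72% rising and 10.2% falling in tumour 2. In tumour 2 the ethanolamine-phosphate lyase Etnppl fell by 4.98 ± 0.39, the proline oxidase Prodh fell by 3.99 ± 0.24 and the retinoic acid hydroxylase Cyp26a1 fell by 3.75 ± 0.32.

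Of 38 tested extracellular matrix genes, 7 fell and 2 rose in tumour 1 (median -0.041), and 19 fell and 2 rose in tumour 2 (median -0.93). Col3a1 had 308 and 141 in the tumours and 238 and 372 in the exposed pools. Of 22 genes of recruited macrophages, 4 fell and 3 rose in tumour 1, and 12 fell and 1 rose in tumour 2. Beside these and the matrix counts stand 8.59% falling and 9.29% rising in tumour 1, and 10.2% falling and 8.72% rising in tumour 2, over all tested genes. The 1 that rose in tumour 2 was Fabp5, a fatty acid binding protein that many cell types carry, at 52.7 and 291 in the tumours, against 22.2 and 22.2 in the exposed pools. Of 8 class II antigen presentation genes, 1 rose and 0 fell in tumour 1, and 6 fell and 0 rose in tumour 2. Cd74, the invariant chain, had 949 and 161 in the tumours, against 277 and 487 in the exposed pools. In tumour 2 most called members of these lists fell, and the summed macrophage and stellate cell markers given above were below both exposed pools. In tumour 1 the recruited macrophage sum, 209.8, was also below both exposed pools, at 409 and 417. Its stellate cell sum of 528 lay between those of the exposed pools, 392 and 668, and its Cd74 was above both pools. The part of those cells in these lists was not tested.

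**Figure D5:**
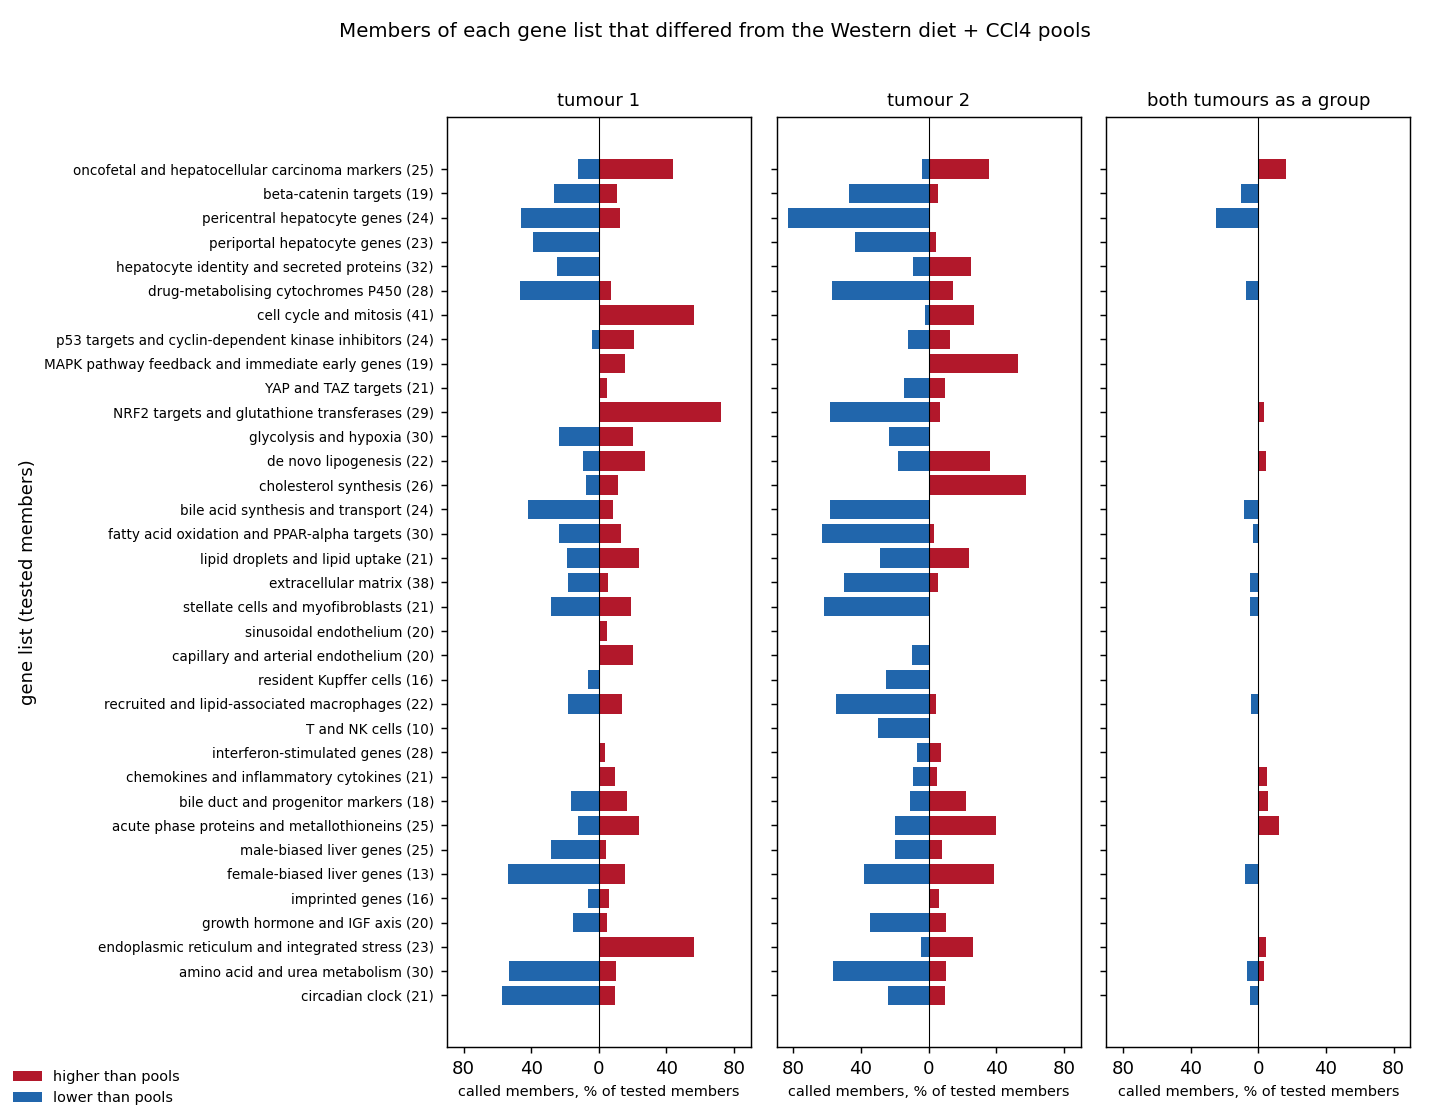
Share of tested members (x axis, percent) of each gene list with at least 10 tested members that were higher (red) or lower (blue) than the exposed pools, for tumour 1, tumour 2 and both tumours as a group, with tested members in brackets. NRF2 targets are red in tumour 1 and mostly blue in tumour 2, cholesterol synthesis is red in tumour 2, and pericentral genes have 20 of 24 members in blue in tumour 2, 11 in tumour 1 and 6 for the group.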

How the data were processed

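Poly-A RNA-seq of liver gave 1 table of normalised read counts per gene for 10 libraries. The signal values were deposited by the authors, whose processing used STAR and mm10 per the submitters' processing notes, with versions not given. The read counter, annotation and scaling were not stated there or in the labels. Dividing each deposited column by its smallest step gave whole reads within 0.01 reads for 100% of values. No paralog rule is stated, so values of near-identical genes are uncertain.

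Of 24062 genes, 6447 were at 0 throughout, and 12648 with a value of at least 1 in 2 or more libraries were tested as log2(value + 1) in limma 3.58.1 (R 4.3.3, trend). All 5 groups shared 1 spread, with duration (12 or 24 weeks, the tumours at 24) as a covariate. That left 4 residual degrees of freedom, or 3 with a mean for each tumour, and p-values were adjusted by Benjamini-Hochberg with a threshold of 0.05. The labels do not say that libraries were independent beyond the mice pooled, so p-values measure the spread between these libraries, which for single mice against pools of 4 need not be equal. All columns were mapped to samples. Count models in edgeR 4.0.16 and DESeq2 1.42.0 on recovered reads were alternatives, and the scripts were tested on simulated data.

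Members and lists were chosen with earlier results of these data known. Of 958 list entries, 948 matched by symbol, 3 by an older symbol and 7 did not match (Trac, Ighm, Igkc, Ly6g, Slp, Noct and Ahsp). Genes were named by rule: the 12 largest shared rises and 12 falls called for the group with both tumours beyond both pools and a mean no lower than the median gene tested, 8 rises and 6 falls for each tumour alone, up to 4 called or 2 uncalled members of each list, and 20 genes followed throughout. The following were chosen after their values were seen: Abcc4, Acta2, Ahr, Akr1c18, Apoa1, Arntl, Bhlhe41, Cbr3, Ccne1, Cdkn2b, Ces2g, Cftr, Ciart, Col3a1, Cry1, Cyp17a1, Cyp2b9, Cyp4a14, Cyp8b1, Ddit3, Egr1, Epcam, Fabp5, Fgf21, G6pdx, Gclc, Gclm, Gsta2, Gsta3, Gstm1, Gstm3, Hmmr, Hmox1, Igf1, Igf2bp3, Igfbp1, Krt18, Krt19, Krt23, Krt7, Lrat, Npas2, Nqo1, Otc, Pck1, Per1, Per3, Pgd, Plk1, Prom1, Psph, S100a8, S100a9, Saa1, Scd1, Slc7a11, Sox9, Sqle, Tagln, Tat, Tkt and Txnrd1. Gene coordinates are those of GENCODE vM21 on GRCm38, and sequences of start sites those of RefSeq on GRCm38.p6.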

Additional observations from a re-analysis of the deposited data

How the results depend on the processing

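The limits are few libraries, 2 tumours from 1 mouse each, and a spread estimated mostly from pools. The group count of 123 genes was 217 after quantile scaling, 388 without the duration term, 6 with array weights, 0 with the 4 libraries of the comparison alone (limma, 385 at an unadjusted p under 0.05) and 745 in DESeq2; the causes were not tested. With no filter on low values, 1238 genes were called in tumour 1, 1393 in tumour 2, 276 in both, 603 in tumour 1 alone and 656 in tumour 2 alone. With a change of at least 2-fold also required, there were 1021 in tumour 1, 1393 in tumour 2, 1651 between the tumours, 319 in both, 386 in tumour 1 alone and 611 in tumour 2 alone. Leaving out 1 library at a time gave 0 to 2394 genes for the group, 1141 to 2450 in tumour 1, 1667 to 2457 in tumour 2, 2060 to 3324 between the tumours, 335 to 645 in both, 453 to 1033 in tumour 1 alone and 710 to 1030 in tumour 2 alone. Of 107 called gene and comparison pairs named in the text, none changed sign under the alternatives run, and 51 kept their call under every one of these. All 51 were calls in a single tumour, and no group call was kept throughout. Of 38 group calls, 0 were kept with the 4 libraries of the comparison alone and 5 with array weights. Those 2 settings were run for the group only. Of uncalled group differences, those of Cd74 ranged from -1.50 without tumour 1 to 1.05 without tumour 2, and those of Gpc3 from -1.39 without tumour 2 to 5.68 without tumour 1, changing sign with the tumour left out. No paired analysis was possible because only the tumours carry replicate numbers, while the pools carry durations.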

Other observations

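Of 30 tested genes of amino acid and urea metabolism, 1 rose and 2 fell for the group (median -0.70), 16 fell and 3 rose in tumour 1, and 17 fell and 3 rose in tumour 2. Over all tested genes 0.466% rose and 0.506% fell for the group, 9.29% rose and 8.59% fell in tumour 1, and 8.72% rose and 10.2% fell in tumour 2. Otc, a urea cycle enzyme, had 223 and 308 in the tumours, against 803 and 497 in the exposed pools, and Tat, which degrades tyrosine, had 374 and 668 in the tumours, against 1872 and 1409.5 in the exposed pools. Of 28 drug-metabolising cytochromes P450, 13 fell and 2 rose in tumour 1, and 16 fell and 4 rose in tumour 2. Of 28 interferon-stimulated genes, limma called 0 for the group (2 at an unadjusted p under 0.05), and edgeR and DESeq2 called 0. Their median difference was 0.46 for the group, 0.58 in tumour 1 and 0.30 in tumour 2. Both tumours lay above both exposed pools for 13 of them and below both for 1. Among all tested genes, 20.6% lay above both exposed pools in both tumours and 20.2% below.

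Of 20 tested genes of the growth hormone and IGF axis, limma called 0 for the group (8 at an unadjusted p under 0.05), edgeR called 0, and DESeq2 called 1 higher and 2 lower. In the single fits 1 rose and 3 fell in tumour 1, and 2 rose and 7 fell in tumour 2. Among all tested genes, 9.29% rose and 8.59% fell in tumour 1, and 8.72% rose and 10.2% fell in tumour 2. The genes that follow were chosen after their values were seen. Igf1, the main circulating growth factor made by hepatocytes, had 50.1 and 127 in the tumours, against 517 and 378 in the exposed pools, with no overlap (adjusted p = 0.0518 for the group, 0.000231 in tumour 1 and 0.000745 in tumour 2). Igfbp1, an insulin-repressed binding protein, had 440.1 and 1412 in the tumours, against 95.2 and 135 in the exposed pools (adjusted p = 0.0854 for the group). Krt18, a hepatocyte keratin, had 516 and 526 in the tumours, against 166 and 298 in the exposed pools, and rose in both tumours taken alone (adjusted p = 0.021 in tumour 1 and 0.0157 in tumour 2).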
